A study of Arabidopsis thaliana with 24 samples.

Results

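The comparison described here is that of clf-28 with WT in the aerial parts of Arabidopsis thaliana plants aged 2 weeks. It rests on 5 RNA-seq libraries of the 24 in the series, clf-28 shoots replicates 1 and 2 and WT shoots replicates 1 to 3. clf-28 is a T-DNA insertion allele of CURLY LEAF (CLF) in the Columbia accession, and WT is Col-0 itself. Both were grown on MS plates in long days at 22 °C. Per the labels, each of the 3 replicates of a group was a biological one. Roots of plants of that age, of both genotypes, were the other tissue set beside the shoots, with 3 libraries per genotype. Inflorescences and siliques came from plants aged 5 weeks on soil. They entered only the shared estimate of the spread, the description of where genes are normally high and the levels of seed genes.

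The library labelled clf-28 shoots replicate 3 was left out. Across genes its mean Spearman correlation was 0.979 to the siliques of clf-28 and 0.774 to the shoot libraries of its label, and its seed storage and oil body markers summed to 231534 FPKM. The library labelled clf-28 siliques replicate 3, at 0.987 to the clf-28 shoots that were kept and 0.782 to the siliques of its label, was left out of the fit too. Levels are in FPKM, fragments normalized to transcript length and library size, given by the authors per locus. FPKM totals in the 5 shoot libraries ran from 1263718 to 1334840, and 18532 to 18855 loci reached 1 FPKM. Read depth is unknown, so a low value cannot be told from an undetected one. In whole shoots, fewer cells of a type and less RNA per cell cannot be told apart.

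CLF encodes a SET-domain methyltransferase of Polycomb repressive complex PRC2, which places the H3K27me3 mark on histones. The mark keeps developmental regulators silent in tissues where they are not used, and a related enzyme, SWINGER, acts partly in parallel with CLF. Plants that lack CLF are known for small, curled leaves and early flowering, with floral homeotic genes expressed in leaves.

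CLF itself (AT2G23380, chromosome 2, 9952867 to 9963623 in the deposited TAIR10 coordinates) was at 7.93 and 6.81 FPKM in clf-28 shoots and at 8.84, 8.33 and 6.93 FPKM in WT shoots. The groups overlapped, and the log2 difference, clf-28 minus WT, was -0.11 (limma adjusted p = 0.911). A level summed over the locus does not resolve an insertion, so it does not check the genotype. No member was called among 17 genes of Polycomb subunits (median log2 difference 0.10) or among 10 genes of H3K27 demethylases and Trithorax type (0.09), with 1 and 2 of them at an unadjusted p under 0.05. The smallest p of the subunits was that of MEA, the PRC2 methyltransferase of the seed (0.56, adjusted p = 0.128), and that of the others was of ULT1, a Trithorax-type factor (-1.09, adjusted p = 0.0905). These differences, like those below, are of log2(FPKM + 1), which understates changes of weakly expressed genes.

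Of 24732 loci tested, 1575 were called higher in clf-28 shoots, which is 6.37% of those tested, and 995 were called lower, which is 4.02% (limma, Benjamini-Hochberg adjusted p under 0.05 over all loci). These 2 shares stand beside the counts of each list, family and class in shoots below. The median log2 difference over all loci tested was 0.01. Among the higher ones 742 had changed at least 2-fold, 235 at least 4-fold and 72 at least 8-fold. Among the lower ones the counts were 245, 17 and 3, so the falls were the smaller in size. Higher calls were 61.3% of all calls, but 51.2% with median-of-ratios scaling (1420 higher and 1356 lower) and 54.3% with quantile normalization (1239 higher and 1044 lower). The clf-28 and WT values did not overlap for 1574 of the higher and 993 of the lower loci, against 50% of all loci tested.

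With 2 clf-28 libraries the calls leaned on each of them. Of the higher loci 571, and of the lower loci 173, were called with each of the 5 shoot libraries left out in turn. WT replicate 1 also stood somewhat apart, being the lowest of the 3 WT libraries at 59.9% of the loci called higher (42.4% of all tested) and the highest at 46.9% of those called lower (33.0% of all tested). Its part in the calls was not tested beyond leaving it out.

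Among the higher loci, 190 were under 1 FPKM in every WT shoot library and at 1 FPKM or more in both clf-28 libraries. Over all 24732 loci tested, 300 had that pattern. The reverse pattern held for 53 of the lower loci. A locus with either pattern passes the filter of 1 FPKM in at least 2 libraries by those shoot libraries alone. How many passed only through the clf-28 shoots is not given here, nor is the reverse pattern over all loci. The counts are therefore not set against each other. To see where called genes are normally used, each locus was placed in the WT tissue, other than shoots, with its highest mean. Siliques were that tissue for 34.5% of the loci called higher and 30.8% of all tested, roots for 36.8% and 36.1%, and inflorescences for 28.8% and 33.1%. Of the loci called lower, 45.2% were highest in inflorescences, against 33.1% of all tested.

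Of 18 floral organ identity genes tested, 9 rose in clf-28 shoots, led by AG, the class C homeotic gene of stamens and carpels. AG (AT4G18960, chromosome 4, 10382856 to 10388539) had 48.0 and 40.0 FPKM in clf-28 shoots, against 0.174, 0.408 and 0.365 FPKM in WT shoots. Every WT library was under 1 FPKM, and AG rose by 5.10 on the log2 scale (SE 0.22, adjusted p = 2.32e-10). Its mean was 44.0 ± 5.63 FPKM in clf-28 shoots (SD, n = 2) and 0.316 ± 0.125 FPKM in WT shoots (SD, n = 3), while WT inflorescences, where AG is normally used, averaged 66.2 FPKM.

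SEP3, whose product bridges floral MADS-box proteins into complexes, had 65.1 and 54.8 FPKM in clf-28 shoots and 11.5, 6.31 and 4.56 FPKM in WT shoots. SEP4, of the same class E, had 42.6 and 34.8 FPKM in clf-28 shoots and 5.29, 5.88 and 6.98 FPKM in WT shoots. SHP2, a fruit valve margin and ovule gene close to AG, had 6.78 and 5.26 FPKM in clf-28 shoots and 0.48, 0.264 and 0.223 FPKM in WT shoots. None of these groups overlapped, and the log2 rises were 2.93 for SEP3 (adjusted p = 4.84e-05), 2.49 for SEP4 and 2.4 for SHP2 (adjusted p = 1.14e-08). AGL6, a floral MADS-box gene near the SEP class, had 1.35 and 1.02 FPKM in clf-28 shoots and 0.0194, 0.115 and 0.0145 FPKM in WT shoots, a rise of 1.06 whose call was lost with a pseudocount of 5 FPKM (0.29).

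Of the floral organ identity genes none was called lower, and their median log2 difference was 0.63. The class B genes AP3 and PI, which specify petals and stamens, were among them at low levels, with 1.73 and 1.94 FPKM of AP3 in clf-28 shoots and 0, 0.604 and 0.589 FPKM in WT shoots. AG, SEP3, SEP4, SHP2 and AGL6 were the 5 that kept their call with each shoot library left out in turn, whereas AGL8 (also called FUL), PI and SEP1 lost it without clf-28 replicate 1 (1.17, 1.06 and 0.50) and AP3 without clf-28 replicate 2 (1.0). Of the 9 calls, 6 were left without clf-28 replicate 1, 8 without clf-28 replicate 2 and 5 with all 24 libraries as labelled. The class A gene AP1 (0.58, adjusted p = 0.143), AP2 (-0.08) and the meristem identity gene LFY (0.32, adjusted p = 0.386) were not called. By annotated product, 8 of 18 K-box and MADS-box factors were higher.

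Marker genes of anthers and pollen were not called beside these homeotic genes. Their summed level was 6.91 and 7.01 FPKM in clf-28 shoots and 4.5, 7.41 and 6.82 FPKM in WT shoots, and 0 of 14 tested were called by limma, with 0 at an unadjusted p under 0.05.

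Flowering time genes were the next group, with 10 of 25 tested higher, none lower and a median log2 difference of 0.27. FT (AT1G65480, chromosome 1, 24331428 to 24333934), the mobile flowering signal made in leaves, had 28 and 31.6 FPKM in clf-28 shoots and 1.78, 1.77 and 1.52 FPKM in WT shoots. The groups lay far apart and each was tight, with a log2 rise of 3.52 (SE 0.25, adjusted p = 6.82e-08). Its relatives BFT and TFL1, known as repressors of flowering, rose as well, BFT by 2.56 and TFL1 by 1.99. BFT had 9.19 and 8.22 FPKM in clf-28 shoots and 0.301, 1.06 and 0.67 FPKM in WT shoots.

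Among the MADS-box genes the activator AGL20, also called SOC1, had 266 and 230 FPKM in clf-28 shoots and 67.6, 98.1 and 113 FPKM in WT shoots, a rise of 1.44 that turned to -0.41 with all 24 libraries as labelled. Its relative AGL42 rose by 1.79, AGL19, an activator in the vernalization response, by 1.96, and AGL17, an activator, by 2.30. FLC, the repressor that vernalization silences, had 36.1 and 26.3 FPKM in clf-28 shoots and 7.35, 4.22 and 3.71 FPKM in WT shoots (2.43, adjusted p = 0.00805). FLC, AGL24 and AGL71 were the 3 of the 10 that lost their call with at least 1 shoot library left out, at 2.21, 1.11 and 0.38 without clf-28 replicate 1 (AGL24, at 1.23, turned to -0.10 with all 24 libraries as labelled), with AGL24 at 1.36 and AGL71 at 0.55 without clf-28 replicate 2 and AGL71 at 0.42 and 0.44 without WT replicates 1 and 3. SVP, a repressor of FT (-0.58, adjusted p = 0.12), CO, the photoperiod activator of FT (0.07), GI (0.02) and FD (0.03) were not called.

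Bud dormancy genes were higher throughout. All 5 tested of the axillary bud list were called higher, with a median log2 difference of 1.22, and 4 kept the call with each library left out. HB21 and HB40 encode homeodomain leucine zipper factors that act below BRC1 in holding buds dormant. HB40 had 21.3 and 18 FPKM in clf-28 shoots and 0.246, 0.28 and 0.251 FPKM in WT shoots (4.03, SE 0.49, adjusted p = 3.65e-05). HB21 had 23.1 and 16.8 FPKM in clf-28 shoots and 0.517, 0.142 and 0.428 FPKM in WT shoots (3.93). Their paralog HB53 rose by 1.11 and TCP12, the BRC1 relative known as BRC2, by 0.78. BRC1 had 1.76 and 2.05 FPKM in clf-28 shoots and 0.2, 0.282 and 0.243 FPKM in WT shoots. Its rise of 1.22 (adjusted p = 0.0389) lost the call whichever shoot library was left out, at 1.3 and 1.15 without clf-28 replicates 1 and 2 and at 1.2, 1.25 and 1.23 without WT replicates 1 to 3.

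**Figure D1:**
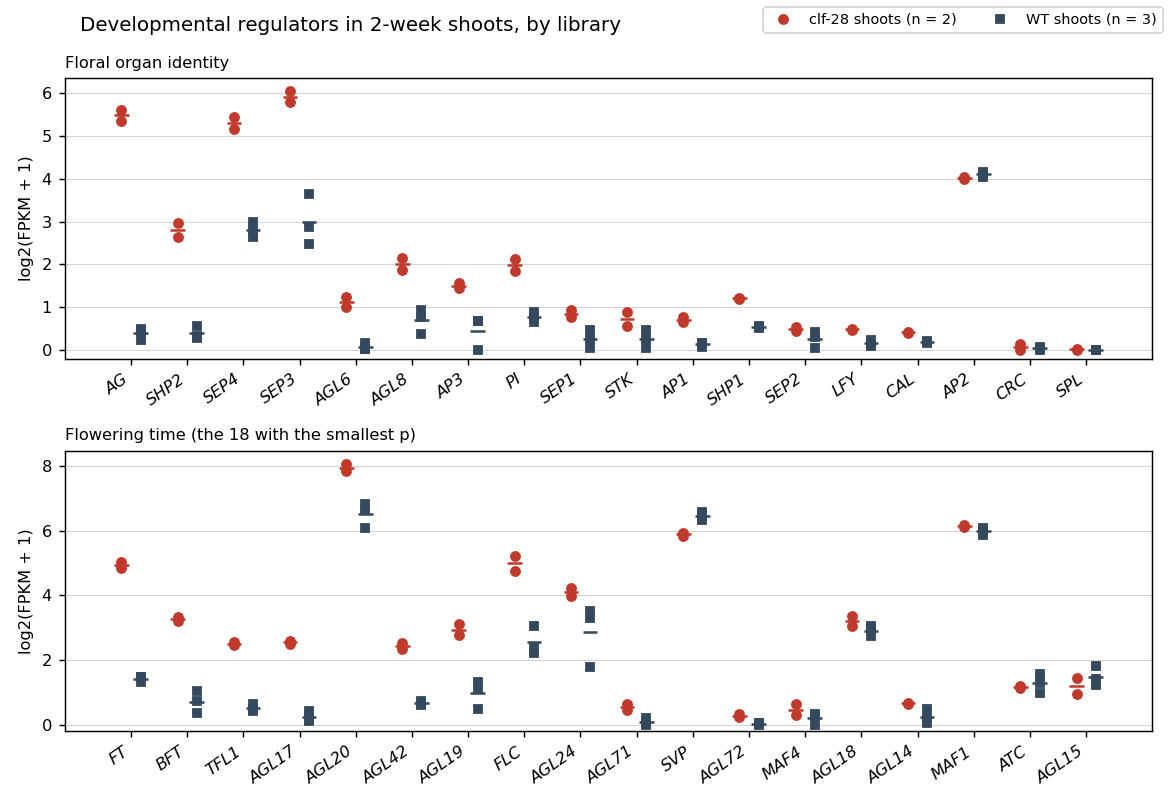
Levels as log2(FPKM + 1) of floral organ identity genes (upper panel) and flowering time genes (lower panel) in each shoot library, clf-28 circles (n = 2) left of WT squares (n = 3), with a bar at each group mean. AG and FT have the widest gaps between the genotypes, with log2 differences of 5.10 and 3.52.

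Other families of developmental regulators that Polycomb is known to silence held fewer calls. Their counts stand beside 6.37% higher and 4.02% lower of all loci tested. None of 11 class I KNOX and meristem genes was called (median -0.06), KNAT1 having the smallest p (-0.57, adjusted p = 0.283), and none of 7 PLETHORA and AINTEGUMENTA-like genes (median -0.10), where that was AIL7 (-0.48, adjusted p = 0.179). At an unadjusted p under 0.05 they had 0 and 1. Among 13 YABBY and leaf polarity genes the sole call was PHB, an adaxial fate factor, which fell by 0.50 (median of the list -0.13). That call was lost without either clf-28 library (-0.50 and -0.49) and without WT replicate 2 or 3 (-0.45 and -0.48).

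Of 11 WOX homeobox genes (median 0.00), WOX13 and WOX2 were higher and WOX1 lower. WOX13, active in replum and callus, had 31.9 and 28.5 FPKM in clf-28 shoots and 5.52, 7.52 and 7.63 FPKM in WT shoots (1.99, adjusted p = 3.54e-06), while WOX1, which acts in blade outgrowth, fell by 0.91. WOX2, an embryo gene, rose by 0.75, a call lost without clf-28 replicate 1 (0.61). Among 8 seed maturation regulators (median 0.06) ABI5 alone was called. ABI5, a bZIP factor of abscisic acid (ABA) responses, had 11.5 and 9.58 FPKM in clf-28 shoots and 1.23, 1.46 and 1.98 FPKM in WT shoots (2.18, adjusted p = 0.00183). Of 6 type I MADS-box genes of the endosperm (median 0.05), AGL38 was called (0.53), at under 1 FPKM in each of the 5 shoot libraries, and lost the call without clf-28 replicate 1 (0.43) or WT replicate 1 (0.46).

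Dehydration genes were among those with the largest rises in clf-28 shoots. LEA7, a late embryogenesis abundant (LEA) protein gene, had 329 and 243 FPKM in clf-28 shoots and 0.94, 0.585 and 0.822 FPKM in WT shoots (7.32, SE 0.88, adjusted p = 3.56e-05). RD20, a caleosin gene induced by drought, had 466 and 381 FPKM in clf-28 shoots and 2.94, 9.14 and 13.1 FPKM in WT shoots (5.68, adjusted p = 1.04e-06). LTI65, also called RD29B, had 47.5 and 42.6 FPKM in clf-28 shoots and 0.71, 0.577 and 0.374 FPKM in WT shoots (4.89, adjusted p = 2.32e-06). The clf-28 libraries stood above every WT library by a wide margin for all 3 genes, which ABA is known to induce.

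Of 19 dehydration and cold effector genes tested, 14 were higher and none lower, with a median log2 difference of 2.87, and 11 kept their call with each shoot library left out in turn. With all 24 libraries as labelled 9 were called. LTI78, or RD29A, a marker of drought and cold, had 401 and 362 FPKM in clf-28 shoots and 15.8, 21.4 and 23.2 FPKM in WT shoots (4.19). COR15A, a chloroplast protein of freezing tolerance, rose by 4.03, the LEA gene LEA4-5 by 4.83, the dehydrin gene ERD10 by 3.07 and LEA14 by 2.87. P5CS1, which makes the osmolyte proline, had 1195 and 1176 FPKM in clf-28 shoots and 78.7, 205 and 261 FPKM in WT shoots, a rise of 2.87 whose call was lost without clf-28 replicate 1 (2.85) or 2 (2.88). COR15B lies on 2 lines of the table. The line counted in the list, with 9978 and 28069 FPKM in clf-28 shoots and 0, 18212 and 7335 FPKM in WT shoots, was not called, while the other, with 685 and 702 FPKM in clf-28 shoots and 30.8, 102 and 136 FPKM in WT shoots, was higher (3.18, adjusted p = 0.0173). Seed storage and oil body markers also had higher sums, at 306 and 788 FPKM in clf-28 shoots and 14.2, 10.1 and 7.25 FPKM in WT shoots. Limma, with a spread shared by all tissues, called 0 of 14. The part of these markers in the levels of the LEA genes was not tested.

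The ABA pathway runs from PYR and PYL receptors through clade A phosphatases, which hold the pathway off and are themselves induced by ABA, to SnRK2 kinases and bZIP factors. Of 22 ABA signalling genes, 11 were higher and 1 lower (median 0.71), and 8 of the higher ones kept their call with each library left out, the exceptions being ABF3, NCED3 and CYP707A2. HAI1 (AT5G59220), a phosphatase gene, had 92.5 and 103 FPKM in clf-28 shoots and 0.829, 2.85 and 2.8 FPKM in WT shoots (5.04, SE 0.32, adjusted p = 1.88e-08). The phosphatase genes HAI2 (3.06), PP2CA (2.44), HAB1 (2.22) and ABI1 (2.01) rose too. ABI1 had 162 and 168 FPKM in clf-28 shoots and 28.5, 43.9 and 52.1 FPKM in WT shoots.

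The factors GBF3 (2.76), ABF3 (1.79) and ABF2 (1.75), which bind ABA response elements, were higher, though ABF3 was uncalled without clf-28 replicate 1 (1.68). The 1 lower member was a receptor gene, PYL4, which had 43.5 and 39.7 FPKM in clf-28 shoots and 178, 95.8 and 96.8 FPKM in WT shoots, a fall of 1.49 (adjusted p = 0.0083) that was uncalled without clf-28 replicate 1 (-1.55) or 2 (-1.42). PYL5 (-1.09) and PYL6 (-1.31) had differences of the same sign and were not called. NCED3, the rate-limiting step of ABA synthesis under drought, had 79.4 and 86.1 FPKM in clf-28 shoots and 9.54, 22.4 and 29.4 FPKM in WT shoots (2.1, adjusted p = 0.0159), with no call without clf-28 replicate 1 (2.15), clf-28 replicate 2 (2.04) or WT replicate 1 (1.65). CYP707A2, of ABA breakdown, was called at 0.80 and lost the call without the same 3 libraries (0.70, 0.89 and 0.59).

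Stress NAC factors and sugar synthesis moved with them. Of 14 stress and senescence NAC genes 8 were higher (median 1.42), 5 of them with each library left out and 3 with all 24 libraries as labelled. NAC019, which acts in drought and jasmonate responses, had 179 and 181 FPKM in clf-28 shoots and 2.05, 3.96 and 4.76 FPKM in WT shoots (5.35, SE 0.28, adjusted p = 2.9e-09). RD26 rose by 2.72, NAC032 by 2.76 and ATAF1 by 2.25. NAC3 (2.4), NAP (1.34) and NAC102 (1.06) were the 3 that lost their call, without clf-28 replicate 1 (2.43, 1.24 and 1.1) or 2 (2.38, 1.43 and 1.01) and, for NAP and NAC102, without WT replicate 1 (0.85 and 0.71). NAC047, uncalled, had 29.0 and 2315 FPKM in the clf-28 libraries and 12.7, 4.89 and 10.9 FPKM in WT shoots.

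All 4 galactinol and raffinose genes that were called, of 7 tested (median 1.49), kept their call with each library left out, and 1 did with all 24 libraries as labelled. GolS2, a galactinol synthase gene of drought, had 78.4 and 78.9 FPKM in clf-28 shoots and 1.98, 5.86 and 7.0 FPKM in WT shoots (3.87), and the raffinose synthase gene SIP1 rose by 2.56.

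The ABA response element has the core ACGTG, which lies within the G-box CACGTG and was searched on both strands of the 250 bases before each annotated start (RefSeq, TAIR10.1), a window found for 21959 of 22062 tested genes. The core was in 36% of 1451 windows of genes called higher, in 18.4% of 942 of genes called lower and in 23.7% of all. The G-box was in 15.6%, 4.67% and 7.11% of these windows. The GAGA repeat (GAGAGA) was in 17.7%, 17.5% and 19.6%. The telobox (AAACCCTA) was in 1.72%, 6.05% and 3.70%. These shares describe letters, not binding, and carry no test. In the dehydration list 63.2% of 19 windows held the core, and in the ABA list 59.1% of 22. The share was 62.5% of 16 in the JAZ and MYC list, 38.9% of 18 in jasmonate synthesis, 32.1% of 28 in the cell cycle list and 9.09% of 22 in cell wall expansion.

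The windows shown are those of the 4 called dehydration or ABA list members with the largest rises, and they differ in this core. Capitals mark the core, or the whole G-box where the core lies in one. LEA7 (chr1:19619474-19619723, plus strand) holds 5 matches over both strands, RD20 (chr2:14146556-14146805, minus strand) 3 and LTI65 (chr5:21236771-21237020, plus strand) 4, counting a G-box once per strand, while HAI1 (chr5:23896940-23897189, minus strand) holds none.
LEA7: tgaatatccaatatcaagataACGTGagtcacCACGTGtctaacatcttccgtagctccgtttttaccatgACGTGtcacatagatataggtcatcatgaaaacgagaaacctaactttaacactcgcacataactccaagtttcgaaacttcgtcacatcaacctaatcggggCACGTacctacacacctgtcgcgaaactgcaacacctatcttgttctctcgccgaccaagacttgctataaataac
RD20: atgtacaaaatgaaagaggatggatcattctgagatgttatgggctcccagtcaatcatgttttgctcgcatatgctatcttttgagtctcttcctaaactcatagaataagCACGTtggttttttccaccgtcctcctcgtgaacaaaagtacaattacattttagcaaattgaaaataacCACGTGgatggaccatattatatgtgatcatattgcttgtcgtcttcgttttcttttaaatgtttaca
LTI65: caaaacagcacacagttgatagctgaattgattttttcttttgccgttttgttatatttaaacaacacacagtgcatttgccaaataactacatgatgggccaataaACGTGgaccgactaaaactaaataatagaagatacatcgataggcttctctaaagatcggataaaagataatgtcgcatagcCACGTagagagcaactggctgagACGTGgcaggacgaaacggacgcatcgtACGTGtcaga
HAI1: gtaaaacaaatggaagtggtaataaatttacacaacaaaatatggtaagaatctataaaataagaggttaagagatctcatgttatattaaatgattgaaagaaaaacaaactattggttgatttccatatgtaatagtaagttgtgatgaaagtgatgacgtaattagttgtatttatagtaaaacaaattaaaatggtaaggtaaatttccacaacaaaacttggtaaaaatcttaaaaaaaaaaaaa
HAI1 thus rose by 5.04 with no such core in its window, and RD20, with 3 matches, by 5.68.

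Several stress genes outside these lists were among the 15 largest rises. ERF53, an ERF factor of drought responses, had 74.9 and 62.3 FPKM in clf-28 shoots and 0.275, 0.829 and 1.72 FPKM in WT shoots (5.23). MAPKKK18, a kinase gene induced by ABA, had 24.4 and 25.8 FPKM in clf-28 shoots and 0.158, 0.274 and 0.434 FPKM in WT shoots (4.35, adjusted p = 2.32e-10), and 6 of 11 genes with a MAPKKK symbol were higher. TSPO, a membrane protein induced by salt and ABA, rose by 4.37. FAMT, which methylates farnesoic acid, had 76.7 and 77.2 FPKM in clf-28 shoots and 2.43, 2.35 and 1.71 FPKM in WT shoots (4.63). The transcripts U49.1, a small nucleolar RNA, and MIR399b, a microRNA locus of phosphate starvation, were listed at 0 in every WT library, with 23.2 and 24.9 FPKM of U49.1 and 9.91 and 45.2 FPKM of MIR399b in clf-28 shoots. MIR399b passed the filter of 1 FPKM in at least 2 libraries only through the clf-28 shoots.

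**Figure D2:**
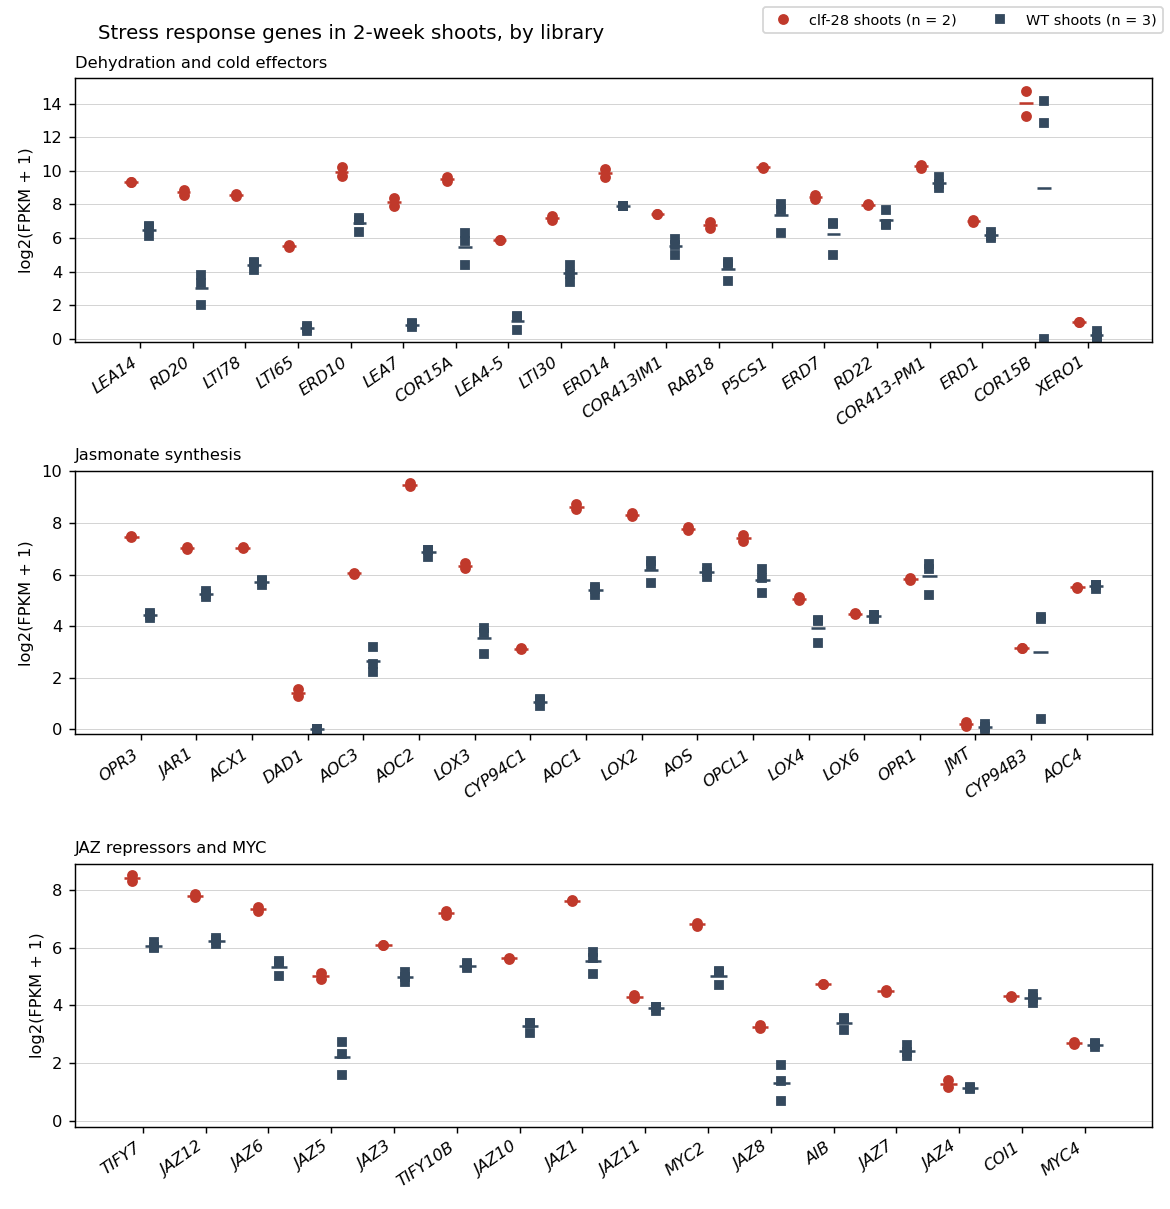
Levels as log2(FPKM + 1) of dehydration and cold effectors, jasmonate synthesis genes and JAZ and MYC genes (panels from top to bottom) in each shoot library, clf-28 circles (n = 2) left of WT squares (n = 3), with a bar at each group mean. LEA7 has the widest gap, at 329 and 243 FPKM in clf-28 shoots with every WT library under 1 FPKM, and most genes of all 3 panels lie higher in clf-28 shoots.

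Jasmonate genes were higher at the level of synthesis and of the JAZ repressors, which jasmonate both degrades and induces. Of 18 synthesis genes 12 were higher and none lower, with a median log2 difference of 1.65, and 10 kept their call with each library left out. OPR3, the reductase that commits the precursor to jasmonate, had 178 and 173 FPKM in clf-28 shoots and 19.1, 20.8 and 21.6 FPKM in WT shoots (3.04, SE 0.18, adjusted p = 1.21e-08). AOC3, an allene oxide cyclase gene, had 65.6 and 64.2 FPKM in clf-28 shoots and 3.69, 4.81 and 8.22 FPKM in WT shoots (3.38), though its close copies AOC1 (3.24) and AOC2 (2.62) may share reads with it. The lipoxygenase genes LOX2 (2.14) and LOX3 (2.82), AOS (1.68, uncalled at 1.62 without clf-28 replicate 2), the peroxisomal oxidase gene ACX1 (1.34) and JAR1, which makes the active isoleucine conjugate (1.79), rose as well. DAD1, a lipase of the first step, was listed at 0 in every WT library and at 1.44 and 1.95 FPKM in clf-28 shoots. The 12 higher genes include CYP94C1 (2.05), which acts in the breakdown of the active conjugate and not in its synthesis. AOC4 (-0.05), LOX6 (0.10) and OPR1 (-0.13) were not called.

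Of 16 JAZ and MYC genes 12 were higher (median 1.8), 7 of them with each library left out. TIFY7, or JAZ9, had 364 and 314 FPKM in clf-28 shoots and 72.3, 63.8 and 62.8 FPKM in WT shoots (2.34, adjusted p = 1.19e-06). JAZ5 rose by 2.81, JAZ10 by 2.35, JAZ6 by 2.00, JAZ12 by 1.55 and JAZ3 by 1.09. MYC2, the factor that JAZ proteins hold off, had 115 and 106 FPKM in clf-28 shoots and 25.2, 35.8 and 34.8 FPKM in WT shoots (1.78, adjusted p = 0.0123), uncalled at 1.72 and 1.84 without clf-28 replicates 1 and 2. The jasmonate receptor gene COI1 (0.07) and MYC4 (0.06) were not called.

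Of 13 genes downstream of jasmonate and wounding 2 were higher (median 0.34). CORI3, a cystine lyase gene induced by jasmonate, had 128 and 120 FPKM in clf-28 shoots and 8.8, 16.7 and 18.4 FPKM in WT shoots (3.06). CLH1, a chlorophyllase gene induced by jasmonate, rose by 1.96, a call lost with either clf-28 library left out (1.92 and 2.01).

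Other stress lists held fewer calls. Of all loci tested 6.37% were higher and 4.02% lower, and salicylate defence, heat shock and leaf senescence had larger shares higher than that. Salicylate defence had 3 of 20 higher (median 0.01), namely the salicylate transporter gene EDS5 (0.89), the regulator SARD1 (1.38) and PR1 (1.22), the marker of systemic resistance. None of the 3 kept its call with each library left out. Without clf-28 replicate 1 the differences were 0.90, 1.41 and 1.08, and without clf-28 replicate 2 EDS5 was at 0.88 and SARD1 at 1.35. PR1 stayed low, at 4.42 and 3.49 FPKM in clf-28 shoots and 0.175, 2.04 and 1.67 FPKM in WT shoots.

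Heat shock genes had 3 of 14 higher and 1 lower (median 0.18) and none held with each library left out. The heat shock factor gene HSF4 was at 0.85 (0.80 and 0.90 without clf-28 replicates 1 and 2, and 0.77 without WT replicate 1), MBF1C at 1.2 (1.03 and 1.38 without the clf-28 libraries, 1.03 and 1.19 without WT replicates 2 and 3) and DREB2A at 1.74 (1.63, 1.84 and, without WT replicate 1, 1.07), while HSFA7A was at -1.34 (-1.44, -1.24 and, without WT replicate 1, -0.94). Limma called 0 of 10 cold and DREB genes (median -0.13), with 0 at an unadjusted p under 0.05, COR27 having the smallest p (2.59, adjusted p = 0.295). Low oxygen had 1 of 12 higher (median -0.16), the sucrose synthase gene SUS1, at 27.7 and 28.7 FPKM in clf-28 shoots and 6.15, 5.85 and 6.74 FPKM in WT shoots (2.01).

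Leaf senescence had 2 of 13 higher (median 0.34), SAG20 (1.62, and 1.49 and uncalled without clf-28 replicate 2) and the chlorophyll degradation gene NYE1 (0.93, uncalled at 1.0 and 0.87 without the clf-28 libraries and at 0.78 without WT replicate 1). Anthocyanin and flavonol genes had 1 of 16 higher (median 0.03), the regulator PAP1 at 0.86, which was uncalled at 0.75 and 0.97 without the clf-28 libraries and at 0.67 and 0.91 without WT replicates 1 and 2.

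Cysteine-rich receptor-like kinase genes split, with 2 of 18 tested higher and 2 lower (median 0.01). CRK15, uncalled, passed the filter on low values only through the clf-28 shoots. CRK30 had 1.06 and 1.38 FPKM in clf-28 shoots and 15, 9.24 and 6.69 FPKM in WT shoots (-2.29, adjusted p = 1.23e-06), and ARCK1, a kinase gene of ABA responses, rose by 1.90. CRK13 (-1.0) and CRK3 (0.64) lost their calls without clf-28 replicate 1 (-1.05 and 0.70) or replicate 2 (-0.95 and 0.58), and CRK3 also without WT replicate 1 or 3 (0.59 and 0.61). CRK12, outside the list, had 0.429 and 0.392 FPKM in clf-28 shoots and 4.84, 3.34 and 4.03 FPKM in WT shoots, a fall of 1.84 (adjusted p = 4.03e-09) that was kept in every setting run.

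**Figure D3:**
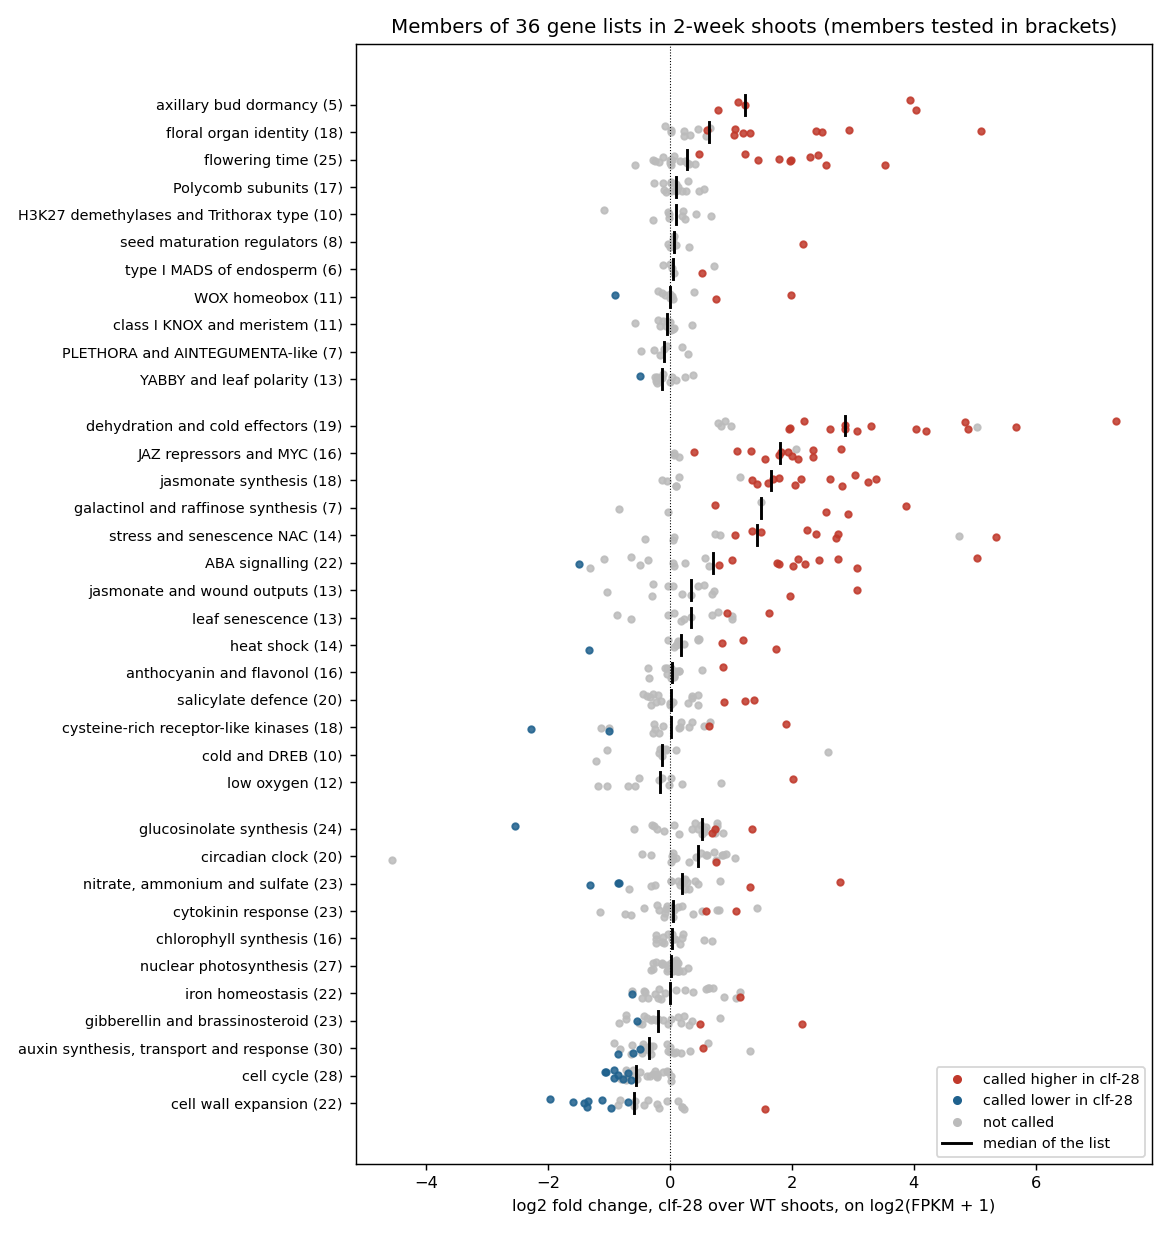
Log2 fold change of clf-28 over WT shoots for each tested member of 36 gene lists, 1 point per gene, coloured by call, with a bar at the median of each list. The dehydration list has the highest median (2.87), while nuclear photosynthesis (0.02) is centred on 0 and cell wall expansion (-0.59) and cell cycle (-0.56) lie below it.

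Of 22 cell wall expansion genes 8 were lower in clf-28 shoots and 1, EXPA10, higher, with a median log2 difference of -0.59. The shares over all loci tested were 4.02% lower and 6.37% higher. XTH enzymes cut and rejoin xyloglucan, and expansins loosen the wall. Root cell markers were lower too, with a sum of 32.6 and 34.6 FPKM in clf-28 shoots and 76.8, 51.8 and 82.8 FPKM in WT shoots, and their part in the wall genes was not tested. XTH15 had 11.1 and 12.2 FPKM in clf-28 shoots and 78.7, 43.4 and 33.7 FPKM in WT shoots, a fall of 1.98 (adjusted p = 0.00536) that was uncalled without clf-28 replicate 1 (-1.92). XTH8 had 4.7 and 5.36 FPKM in clf-28 shoots and 26.2, 14.5 and 13.1 FPKM in WT shoots (-1.59), and EXPA6 had 42.6 and 47.5 FPKM in clf-28 shoots and 76.8, 93.1 and 98.5 FPKM in WT shoots (-0.97). XTH8 and EXPA6 were the 2 of the 8 whose call held with each library left out. XTH17 (-1.35) and XTH4 (-1.12) were uncalled without clf-28 replicate 1 (-1.26 and -1.11), and XTH4 without clf-28 replicate 2 (-1.13). EXPA10 (1.56) was uncalled without the clf-28 libraries (1.6 and 1.53) and without WT replicates 1 and 2 (1.4 and 1.64). Of the 8 calls, 2 were left without clf-28 replicate 1, 4 without clf-28 replicate 2, 6 without WT replicate 1 and 8 with all 24 libraries as labelled.

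Arabinogalactan proteins are heavily glycosylated wall and membrane proteins, grouped here by annotated product after the data were seen. Of 31 tested, 14 were lower and 1, AGP2, higher, with a median of -0.88 that was -0.31 with all 24 libraries as labelled (7 lower). By symbol 6 of 18 FLA genes, the fasciclin-like members, were lower. The shares over all loci tested were 4.02% lower and 6.37% higher. FLA9 had 28.8 and 24.3 FPKM in clf-28 shoots and 423, 115 and 112 FPKM in WT shoots (-2.69, adjusted p = 0.0079), uncalled without clf-28 replicate 1 (-2.81) or 2 (-2.57). FLA2, lower by the same test in every setting run, had 27.7 and 26.1 FPKM in clf-28 shoots and 140, 67.1 and 66.5 FPKM in WT shoots (-1.63). AGP7 fell by 1.99 (adjusted p = 0.0472), a call lost without either clf-28 library (-2.12 and -1.86) and without WT replicate 1 (-1.34) or 2 (-2.19). WT replicate 1 was the highest library for each of these genes, and without it 5 of the 31 were called lower, against 3 without clf-28 replicate 1 and 2 without clf-28 replicate 2. All 26 XTH genes by product gave 9 lower and 1 higher (median -0.59).

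Genes of cell division were lower by small amounts. Of 28 cell cycle genes 8 were lower and none higher, with a median log2 difference of -0.56, beside 4.02% lower and 6.37% higher of all loci. AUR1, an Aurora kinase gene of mitosis, had 9.79 and 9.96 FPKM in clf-28 shoots and 16.7, 21.7 and 20.4 FPKM in WT shoots (-0.92, adjusted p = 0.000285), and it alone of the 8 held with each library left out. CDKB1;1, a mitotic kinase gene, had 3.93 and 6.03 FPKM in clf-28 shoots and 9.56, 12.6 and 11.5 FPKM in WT shoots (-1.05, uncalled at -0.79 without clf-28 replicate 1). The cyclin genes CYCB1;4 (-0.70, uncalled at -0.68 without clf-28 replicate 1) and CYC1BAT, or CYCB1;2 (-1.07, uncalled at -1.02 without clf-28 replicate 2), and CDKB2;1 (-0.65, uncalled at -0.57 without clf-28 replicate 2) were lower. The 8 calls became 3 without clf-28 replicate 1, 4 without clf-28 replicate 2, 4 with all 24 libraries as labelled, 14 with the 5 shoot libraries alone and 18 without the WT replicate 1 libraries of all tissues.

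By annotated product, also chosen after the data were seen, 72 of 278 ribosomal protein genes were lower and 1 higher (median -0.43). The counts were 10 of 46 histone genes lower and 1 higher (-0.18) and 7 of 46 cyclin genes lower (-0.25). Of 69 peroxidase genes 12 were lower and 2 higher (-0.23). All loci tested had 4.02% lower and 6.37% higher, and these classes were picked from 214 with at least 15 tested genes. Without clf-28 replicate 1 or 2 the lower calls were 4 and 2 for histones, 1 and 1 for cyclins and 5 and 5 for peroxidases, and with all 24 libraries as labelled they were 0, 3 and 10. The ribosomal count moved widely too, being 20 without clf-28 replicate 1, 9 without clf-28 replicate 2, 45 without WT replicate 1, 112 with median-of-ratios scaling, 134 with the 5 shoot libraries alone and 10 with all 24 libraries as labelled, while the median stayed between -0.34 and -0.50. The prohibitin genes PHB1 to PHB4, which encode inner mitochondrial membrane proteins, were lower, and PHB6 (-0.51, adjusted p = 0.0564) was not called. PHB2 had 42.4 and 46.1 FPKM in clf-28 shoots and 77.6, 65.2 and 62.1 FPKM in WT shoots (-0.61, adjusted p = 0.00666). Without clf-28 replicate 1 PHB1, PHB2 and PHB4 were uncalled (-0.47, -0.55 and -0.65), and PHB4 also without clf-28 replicate 2 (-0.44) and WT replicates 1 and 2 (-0.46 and -0.52).

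**Figure D4:**
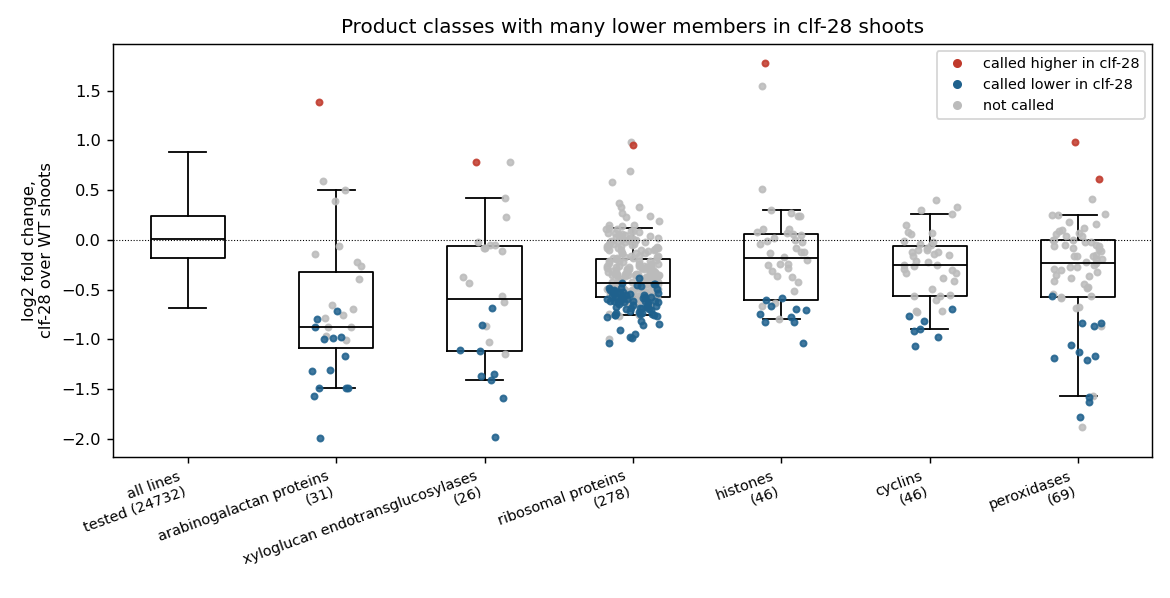
Log2 fold change of clf-28 over WT shoots of the genes in 6 annotated product classes, 1 point per gene, coloured by call, beside all loci tested. Boxes give the median and quartiles, whiskers the central 90% and a dotted line 0. Arabinogalactan proteins have the lowest median (-0.88), and ribosomal proteins (-0.43) form a narrow cloud below 0.

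No member of the photosynthesis and chlorophyll lists was called. The counts were 0 of 27 nuclear photosynthesis genes (limma, median 0.02) and 0 of 16 chlorophyll synthesis genes (median 0.03), with 0 in each at an unadjusted p under 0.05. RBCS1A, of the Rubisco small subunit, had 22826 and 19747 FPKM in clf-28 shoots and 19210, 21281 and 22441 FPKM in WT shoots, and the groups overlapped. The members with the smallest p were PSBY of photosystem II (-0.32, adjusted p = 0.583) and HEMA2 of tetrapyrrole synthesis (0.55, adjusted p = 0.304). The shoot green tissue markers were likewise uncalled by limma, with 0 of 12, and 2 were at an unadjusted p under 0.05. The sum of these markers was uneven, at 40408 and 75615 FPKM in clf-28 shoots and 33115, 38039 and 41132 FPKM in WT shoots.

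Single metabolic and signalling genes fell steeply. IMS2, or MAM3, which elongates methionine for aliphatic glucosinolates, had 2.11 and 2.41 FPKM in clf-28 shoots and 21.0, 15.2 and 18.3 FPKM in WT shoots (-2.54, adjusted p = 0.0161), uncalled without clf-28 replicates 1 and 2 (-2.48 and -2.61) and without WT replicate 1 (-2.44). The other called members of the 24 glucosinolate genes (3 higher and 1 lower, median 0.52) were the regulators MYB34 (1.35) and MYB76 (0.73) and the sulfotransferase gene SOT18 (0.69). Each was uncalled with either clf-28 library left out, at 1.37 and 1.34, 0.61 and 0.86, and 0.63 and 0.75. The bZIP factor genes BZIP34 and bZIP3 fell. BZIP34, known from pollen wall development, had 12.6 and 11.9 FPKM in clf-28 shoots and 43.6, 38.1 and 42.7 FPKM in WT shoots (-1.68), and bZIP3 fell by 1.78. The carnitine transporter gene OCT3 fell by 1.78. MIR169k, a microRNA locus, was listed at 0 in both clf-28 libraries and at 3.58, 3.7 and 1.51 FPKM in WT shoots.

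MEE3, a RADIALIS-like MYB gene that the deposited table spreads over several lines, had 0.413 and 0.61 FPKM in clf-28 shoots and 3.84, 13.1 and 11.6 FPKM in WT shoots on the line tested (-2.65, adjusted p = 5.65e-05). Of its relatives with an RL symbol, 4 of 6 were lower. RL3 had 12.5 and 11.9 FPKM in clf-28 shoots and 27.7, 34.3 and 27.8 FPKM in WT shoots (-1.22). The loci of trans-acting small RNAs, which silence other transcripts, were lower in 4 of 6 cases (TAS1A -1.32, TAS3 -0.73, TAS1B -0.62, TAS2 -0.59). TAS1A had 8.64 and 11.5 FPKM in clf-28 shoots and 21.9, 31.5 and 27 FPKM in WT shoots. All 4 were uncalled without clf-28 replicate 1 (-1.14, -0.63, -0.64 and -0.62), and all but TAS1A without clf-28 replicate 2 (-0.83, -0.59 and -0.55). RMA2, a ubiquitin ligase gene (-2.15, adjusted p = 0.0425), was uncalled without clf-28 replicate 1 (-1.27) and without each WT replicate (-1.91, -2.22 and -2.33), and ABCG4, a transporter gene (-1.63), without clf-28 replicate 1 (-1.54), clf-28 replicate 2 (-1.73) and WT replicate 2 (-1.50).

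Hormone and nutrient lists held scattered calls, beside 6.37% higher and 4.02% lower of all loci tested. Of 30 auxin genes 1 was higher and 3 lower (median -0.34): the synthesis gene YUC9 at 0.54, its relative YUC5 at -0.49, the conjugation gene DFL1 at -0.61 and the influx carrier gene LAX3 at -0.85. None held with each library left out, and without clf-28 replicate 1 they stood at 0.47, -0.44, -0.58 and -0.86. Without clf-28 replicate 2, YUC5, DFL1 and LAX3 were uncalled at -0.54, -0.64 and -0.84, as were YUC5 and DFL1 without WT replicate 2 (-0.47 and -0.61), DFL1 without WT replicate 3 (-0.58) and LAX3 without WT replicate 1 (-0.62).

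Gibberellin and brassinosteroid genes had 2 of 23 higher and 1 lower (median -0.20). GA2OX6, which inactivates gibberellins, had 56.6 and 65.9 FPKM in clf-28 shoots and 4.67, 20.5 and 20.6 FPKM in WT shoots (2.17). It was uncalled at 2.28 and 2.06 without clf-28 replicates 1 and 2, as were GA2 of gibberellin synthesis (0.49, with 0.48 and 0.49) and DWF1 of brassinosteroid synthesis (-0.54, with -0.59 and -0.49). The calls of GA2 and DWF1 were also lost without WT replicate 1 (0.47 and -0.47), 2 (0.51 and -0.55) or 3 (0.48 and -0.59).

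Of 23 nitrate, ammonium and sulfate genes 2 were higher and 3 lower (median 0.19). NRT1.7, which loads nitrate into the phloem of older leaves, had 97.3 and 107 FPKM in clf-28 shoots and 16.5, 13.3 and 12.5 FPKM in WT shoots (2.78, adjusted p = 2.41e-05), and it alone held with each library left out. The ammonium transporter gene AMT1;2 was at 1.31 (uncalled at 1.27 without clf-28 replicate 1). NRT1.5 of xylem loading was at -1.31, the dual nitrate transporter and sensor gene NRT1.1 at -0.86 and AMT1;3 at -0.84, and all 3 were uncalled without clf-28 replicate 1 (-1.34, -0.80 and -0.85) or 2 (-1.28, -0.93 and -0.83). NRT1.1 was also uncalled without WT replicate 1 (-0.71), and AMT1;3 without WT replicate 1 (-0.85) or 3 (-0.72).

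Cytokinin response genes had 2 of 23 higher (median 0.05), the oxidase gene CKX7 (1.08, held with each library left out) and the synthesis gene IPT5 (0.58). IPT5 was uncalled without clf-28 replicate 1 or 2 (0.65 and 0.50) and without WT replicate 1 or 2 (0.48 and 0.55). The circadian clock had 1 of 20 higher (median 0.46), the photoreceptor gene LKP2 (0.75). It was uncalled without the clf-28 libraries (0.78 and 0.71) and without WT replicates 1 and 2 (0.73 and 0.71), and 8 clock genes were called higher with the 5 shoot libraries alone. Iron homeostasis had 1 of 22 higher and 1 lower (median 0.00), the ferritin gene FER1 (1.14) and the metal transporter gene YSL1 (-0.62). FER1 was uncalled at 1.08 and 1.19 without the clf-28 libraries and at 0.94 without WT replicate 1, and YSL1 at -0.58 and -0.67 without the clf-28 libraries and at -0.49 and -0.62 without WT replicates 2 and 3.

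The root cell markers, whose sum was 1133 FPKM or more in every root library, were the one marker set with calls. Of 21 tested, 7 were lower and none higher (median -0.42), among them the endodermal genes MYB36 (-1.16), CASP1 (-1.66) and CASP2 (-1.52). Only MYB36 held with each library left out. CASP1 was uncalled at -1.63 and -1.68 without the clf-28 libraries and CASP2 at -1.32 without clf-28 replicate 1. CASP1 had 1.54 and 1.63 FPKM in clf-28 shoots and 15.4, 2.57 and 8.28 FPKM in WT shoots.

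Seed storage and oil body markers had 0 of 14 called by limma (median 1.56) and 2, both higher, at an unadjusted p under 0.05. The clf-28 and WT shoot values of 12 of the 14 did not overlap, against 50% of all loci tested. The spread used was shared with WT siliques, whose seed sums were 53633, 17.3 and 19.3 FPKM, and its part in the absent calls was not tested. The count was 0 also without each clf-28 library, 5 with the 5 shoot libraries alone and 9 without the WT replicate 1 libraries of all tissues. SESA4, a storage albumin gene, had 103 and 196 FPKM in clf-28 shoots and 0.394, 0.0608 and 0.187 FPKM in WT shoots (6.89, adjusted p = 0.0644), and its mean in clf-28 siliques was 39498 FPKM. The seed sum was of like size in clf-28 roots, at 253, 553 and 377 FPKM in replicates 1 to 3, against 6.39, 3.23 and 10.6 FPKM in WT roots. In clf-28 inflorescences it was 219, 532 and 379 FPKM, against 41.2, 15.1 and 11.5 FPKM in WT inflorescences. In all 3 of these tissues of clf-28 the sum was lower in replicate 1 than in replicate 2. The source of these transcripts was not tested. LEA7 and RD20, which seeds also express, had means of 81.9 and 425 FPKM in clf-28 siliques, where the seed sum was 143324 and 152977 FPKM, and the LEA7 mean was 286 FPKM in clf-28 shoots.

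The roots of the same age share no library with the shoots and show which changes were common to both. In roots 1524 of the 24732 loci tested were higher and 609 lower. Higher in both tissues were 449 loci, which is 28.5% of those in shoots and 29.5% of those in roots, and lower in both were 130, which is 13.1% and 21.3%. Opposite calls were fewer, with 14 loci higher in shoots and lower in roots and 37 lower in shoots and higher in roots.

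The test of the difference itself called 1124 loci, 4.54% of those tested, with 514 changed more upward in shoots and 610 more downward. Of 18 floral organ identity genes 5 differed, all changed more upward in shoots. AG rose by 5.10 in shoots and by 1.6 in roots (difference 3.5, adjusted p = 1.1e-06), and FT by 3.52 in shoots while roots had 0.16 (difference 3.35, adjusted p = 7.96e-06). In bud dormancy 2 of 5 differed, HB40 (3.19) and HB21 (2.58), both with the larger rise in shoots. NAC019 (3.62), RD20 (5.36), LTI65 (3.91) and MAPKKK18 (2.54) also rose more in shoots.

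In roots 12 of 18 genes of the jasmonate synthesis list (median 1.99) and 12 of 16 JAZ and MYC genes (median 2.26) were higher. Over all 24732 loci tested the count higher in roots was 1524. The test of the difference called 5 of the synthesis genes, LOX2 (1.91), DAD1 (1.34), JAR1 (1.39) and ACX1 (0.62) with the more upward change in shoots and LOX6 (-1.38) with the less upward one. It called 3 of the JAZ and MYC genes, JAZ11 (0.52), JAZ8 (-2.99) and JAZ10 (-2.20). LTI78 rose by 3.65 in roots and GolS2 by 4.32, FAMT by 4.35, and none of these 3 passed the test of a difference between tissues (adjusted p = 0.712, 0.80 and 0.856). JAZ10 was higher in both and less so in shoots (2.35 in shoots and 4.55 in roots, adjusted p of the difference 0.0175). Photosynthesis genes went the other way, with 20 of 27 lower in roots (median -1.18), beside 609 of all 24732 loci. Of these photosynthesis genes 4 of 27 were called as differing, all with the more upward difference in shoots.

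**Figure D5:**
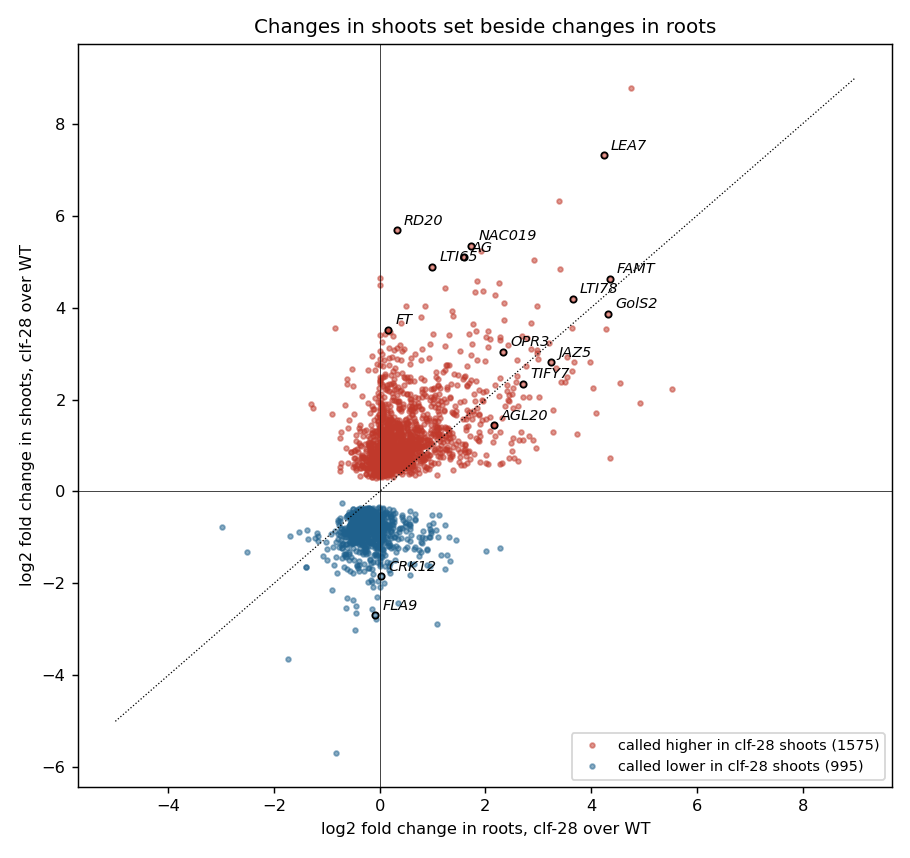
Log2 difference of clf-28 minus WT in shoots against that in roots, 1 point per locus called in shoots, with named genes circled. AG and FT lie along the shoot axis (5.10 and 3.52 in shoots, 1.6 and 0.16 in roots), while LTI78 and GolS2 lie near the dotted diagonal.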

How the data were processed

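Strand-specific single-end RNA-seq of total RNA gave 24 libraries, 3 for each of 8 groups of genotype and tissue, grouped by their labels. The authors deposited FPKM per locus. Per the submitters' processing notes, TopHat, Cufflinks and Cuffdiff were used on TAIR10, with versions not given in the sources used here, and how libraries were scaled to each other is not given either. The table held 34178 lines, of which 1312 named several merged genes and 764 none. Its 48 columns of confidence bounds were not used. In the fitted libraries 60 lines had a value whose status was not OK and were dropped. FPKM ratios showed no whole-read steps (the commonest 1% bin held 0.843% to 1.46% of low values), so no counts were recovered, and depth and detection limits are unknown.

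Loci at 1 FPKM or more in at least 2 of 22 libraries were tested with limma 3.58.1 in R 4.3.3 on log2(FPKM + 1), with 1 mean per group, an intensity trend, a robust prior and 14 residual degrees of freedom, shared by all tissues. The spread within shoots thus enters only as part of that of all groups. Tests were two-sided, with Benjamini-Hochberg adjustment over all 24732 loci and a threshold of 0.05. On simulated data with 200 changed genes of 24289, the shoot contrast recovered 51% of 2-fold and 94% of 4-fold changes. Tables were handled with Python 3.11.15 and pandas 2.3.3.

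The members and lists were chosen with earlier results of these data known. Of 747 list entries 694 were matched, 35 lay in merged loci and 18 had no or no clear name. Of the 36 lists and 4 marker lists, counts and medians are over members tested. Named genes were CLF, the 15 largest rises and falls with a symbol, at least a 2-fold change, a mean of 1 FPKM in a shoot group and no overlap, up to 5 called members per list with the smallest p (or the member with the smallest p), the 5 largest differences from roots each way and the highest marker of each other tissue. Other list and family members named, and the product classes (at least 15 tested genes sharing an annotated product), were chosen after their values were seen. Symbols, products and sequences came from RefSeq TAIR10.1, in which 30365 of 30980 single gene IDs were found. In all, 17 alternatives were run.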

Additional observations from a re-analysis of the deposited data

Results flagged for a closer look

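The difference between shoots and roots passed its test for 1124 loci, and the 10 named genes with the widest differences, shoots minus roots, are given with their log2 values. Changed more upward in shoots were RD20 (5.36) and LTI65 (3.91), described above, and 3 others. SNRK2.9, a kinase gene of the SnRK2 family, differed by 4.41, with 60.9 and 35.4 FPKM in clf-28 shoots and 0, 6.98 and 7.1 FPKM in WT shoots. SNRK2.9 lost the call without clf-28 shoots replicate 1 (4.03), with the 11 root and shoot libraries (4.41) and with a pseudocount of 0.1 FPKM (5.61), which also ended that of LTI65 (4.14). U49.1 (4.64) and MIR399b (4.49) were listed at 0 in WT shoots and had a difference of 0.00 in roots. MIR399b passed the filter on low values only through the clf-28 shoots, so it could not be tested without either of them.

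The other genes changed less upward, or more downward, in shoots than in roots. TPS13, a terpene synthase gene (-8.60), was listed at 0 in all 5 shoot libraries and in WT roots, with a mean of 566 FPKM in clf-28 roots. DREB26, an ERF-type factor gene (-4.87), had 4.69 and 3.82 FPKM in clf-28 shoots and 85.7, 18.1 and 12.7 FPKM in WT shoots, a shoot difference that was not called (adjusted p = 0.0811), and its difference from roots was uncalled without clf-28 shoots replicate 1 (-4.99) or 2 (-4.75). LCR35, a defensin-like gene, differed by -4.37, and its shoot difference of -0.81 was not called (adjusted p = 0.224). EXO, a cell expansion gene (-4.14), had 25.4 and 21.9 FPKM in clf-28 shoots and 131, 67.4 and 57.1 FPKM in WT shoots, and was uncalled without clf-28 shoots replicate 1 (-4.24), clf-28 shoots replicate 2 (-4.04), WT shoots replicate 1 (-3.78) or WT shoots replicate 2 (-4.26). ERD5, which breaks down proline (-3.71), had 35 and 32.5 FPKM in clf-28 shoots and 214, 63.3 and 44.8 FPKM in WT shoots, a shoot difference of -1.30 that was not called (adjusted p = 0.131). For DREB26, LCR35, EXO and ERD5 the shoot fall was smaller in size than the difference from roots. That difference thus includes a higher mean log2 level in clf-28 than in WT roots. With the 24 libraries as labelled the difference from roots was uncalled for LTI65 (2.71), U49.1 (3.1), MIR399b (2.99), SNRK2.9 (2.56), LCR35 (-1.95), EXO (-3.87) and ERD5 (-2.32), and with a replicate block for EXO (-4.38).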

How the results depend on the processing

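Counts of loci higher, lower and differing from roots were within 1.5 times the reported 1575, 995 and 1124 with pseudocounts of 0.1 and 5 FPKM, both other filters, both other scalings and no trend or robust prior. They were 2576 and 1598 with the 5 shoot libraries alone, 2691, 1832 and 2246 with the 11 root and shoot libraries, 804, 526 and 534 with the 24 libraries as labelled, 3670, 2815 and 4058 without the WT replicate 1 libraries of all tissues, and 823, 308 and 514 with a replicate block. The cause was not tested. With each shoot library left out in turn they ran from 626 to 1298, from 250 to 715 and from 567 to 977. Whether replicate numbers pair the shoots cannot be told from the same-number correlations (0.125 and 0.0915, with 2 pairs). With 2 clf-28 libraries the deviations from their mean mirror each other. The replicate block ended the call of 32 named results and turned none. As labelled, the sign of the shoot difference turned for CLF (0.16), AGL20 (-0.41), AGL24 (-0.10), AIL7 (0.48), MYB34 (-0.19), MYB76 (-0.09), LCR35 (1.61, against -0.81), ERD5 (0.09, against -1.30) and the pollen marker ANX1 (-0.12), and ANX1, at 0.01, also turned with median-of-ratios scaling (-0.04), quantile normalization (-0.02), without the WT replicate 1 libraries of all tissues (-0.01) and, with each shoot library left out, ran from -0.01 to 0.05. Of the named results whose sign held, 50 lost and 1 gained a call as labelled. AGL20, MYB34 and MYB76, whose sign turned, lost theirs too. Depth is unknown, so low levels such as those of BRC1 and AGL38 cannot be given a detection limit.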

Other observations

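By annotated product, and chosen after the data were seen, remorins, plasma membrane proteins of stress signalling, had 6 of 16 genes higher in clf-28 shoots (median log2 difference 0.35) and the nuclear factor Y subunits, which act with bZIP factors among others, 7 of 30 higher and 1 lower (0.21), against 6.37% higher and 4.02% lower of all loci. Without clf-28 replicate 1 the remorins had 3 higher, and the nuclear factor Y subunits had 2 higher and 0 lower by limma.

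The cold regulators CBF1 and CBF2, which were not called, stood low in WT shoots replicate 1. CBF1 had 15.9 and 17.7 FPKM in clf-28 shoots and 10.1, 67.8 and 62.5 FPKM in WT shoots, and CBF2 had 28.2 and 30.3 FPKM in clf-28 shoots and 25.6, 129 and 98.1 FPKM in WT shoots. Their targets COR15A and LTI78 had their lowest WT level in the same library, at 19.6 and 15.8 FPKM, and were higher in clf-28 shoots than in every WT library.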
